A study of Gasterosteus aculeatus with 53 samples.

Results

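Brain gene expression was compared between Paxton limnetic females that had been with a conspecific male and Paxton limnetic females that had been with a heterospecific male. The members were chosen by their labels alone, population and trial type, and numbered 12 of the 53 libraries, 6 with a conspecific male (trials 10, 17, 20, 40, 55 and 57) and 6 with a heterospecific male (trials 26, 30, 37, 41, 49 and 70). Limnetic sticklebacks live and feed in the open water of a lake, benthic sticklebacks along its bottom, and both species meet in Paxton Lake. A conspecific male was a Paxton limnetic male and a heterospecific male a Paxton benthic male. A further 6 Paxton limnetic females were with a female of their own population and served as the social control. That other female was not reproductive and shared the subject's home aquarium, so this control differed from the male trials in more than sex. Every subject was a reproductive female with ripe eggs, spent up to 20 min with the other fish or stayed until she spawned, and gave 1 library from polyA RNA of the whole brain. The same 3 trial types were run with Paxton benthic and Priest limnetic females, whose libraries enter here for the shared estimate of spread and for the values set beside those of Paxton limnetic fish.

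Male stickleback court with nuptial colour and a zigzag dance, and a female with ripe eggs follows a male to his nest or turns away. Such an encounter reaches the brain through vision, smell and the lateral line, and the circuits that weigh it run through the preoptic area and the hypothalamus and use neuropeptides and steroid hormones. Within minutes of a social stimulus the fastest transcripts, the immediate early genes, can build up in active neurons, while most other transcripts change more slowly.

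The 12 libraries were alike in depth. Total counts ran from 33331960 to 43506543 with a conspecific male and from 34230647 to 43588156 with a heterospecific male (difference of means 390423, exact two-sided permutation test p = 0.848). Genes with a count numbered 20601 to 20845 with a conspecific male and 20579 to 20836 with a heterospecific male (difference of means −25.8, exact two-sided permutation test p = 0.580). The 10 most abundant genes held 5.04% to 7.68% of counts with a conspecific male and 4.83% to 5.98% with a heterospecific male. The median trial number was 30 with a conspecific male and 39 with a heterospecific male (difference of means −9, exact two-sided permutation test p = 0.411). Conspecific trials 10, 17 and 20 nevertheless all came before the first heterospecific trial, 26. All 66 pairs of these libraries differed by more than sampling noise, so none was a copy of another. That each came from its own fish is known from the study's description. The files give Ensembl identifiers that they do not pair with gene names, so brain markers and lists of neuropeptide, steroid and immediate early genes could not be looked up, and genes are given by identifier.

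No gene separated the treatments in edgeR's quasi-likelihood test at an adjusted p under 0.1. Of 20011 genes tested, 0 were called (0%), and the lowest adjusted p was 0.130. At an unadjusted p under 0.05 edgeR gave 759 genes higher with a conspecific male (3.79% of those tested) and 562 lower (2.81%), 1321 in all, and the median log2 fold change over all genes was −0.0045. The genes at the top of the ranking leaned one way: all of the 20 with the lowest p, and 86 of the first 100, were higher with a conspecific male. The 6 conspecific and the 6 heterospecific values did not overlap for 35 genes that were higher with a conspecific male (0.175% of those tested) and 25 that were lower (0.125%). With 6 fish a group and 20011 genes, some genes separate fully by chance alone. The number to expect by chance was not computed, so these counts are a description and no evidence of a difference between treatments. These are bulk brains, so fewer cells of a type and less RNA per cell cannot be told apart in any of these values. Each library is a separate fish. The edgeR p-values weigh a difference of means against the spread between fish, estimated over the 51 libraries of all groups.

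DESeq2's Wald test, the tool of the study, called genes where edgeR and limma-voom called 0. It called 44 of the 21723 genes that it gave an adjusted p, 39 higher with a conspecific male (0.18%) and 5 lower (0.023%). Log2 fold changes of the 39 ran from 0.32 to 4.92 with a median of 1.08, and those of the 5 from −4.73 to −0.20 with a median of −1.21. Both extremes came from genes of very low level. ENSGACG00000008252 (4.92) averaged 0.642 CPM over the 12 libraries and ENSGACG00000017259 (−4.73) 0.127 CPM, so the size of these changes is uncertain. The same 39 genes had unadjusted p of 9.15e-06 to 0.00113 in edgeR, where none had an adjusted p under the threshold. Most were modestly expressed, with a median level of 5.83 CPM (counts scaled to the same total in every library) for the 39, against 17.2 CPM over all genes tested. The groups did not overlap for 5 of the 39 and for 3 of the 5, which describes genes that were selected on this contrast.

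Within these 44 genes the females of one treatment were far from uniform. In 7 of the 39 the library of conspecific trial 20 alone held over 50% of the CPM of all 12 libraries, and its level was 8.86 to 13.7 times that of the next highest library. None of these 7 was called by DESeq2 once trial 20 was left out (0 of 7). The 7 were picked for their level in trial 20, so that loss is largely fixed by the choice. Over the 39 genes the highest of the 12 values came most often from conspecific trial 17, which was highest for 16 of the 39, while trial 20 was highest for 11, trial 10 for 5, trial 57 for 4, trial 55 for 2 and trial 40 for 1. Conspecific trial 55 lay at the other end and had the lowest of the 6 conspecific values for 17 of the 39. Trial 17 was also the library whose 10 most abundant genes held the largest share of counts, 7.68%, with 6.05% in trial 40 next. Whether this bears on the 39 genes was not tested. Among the heterospecific libraries it was trial 30 that came nearest to the conspecific level: it was the highest of its 6 for 23 of the 39, while no other heterospecific library was highest for more than 5.

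**Figure D1:**
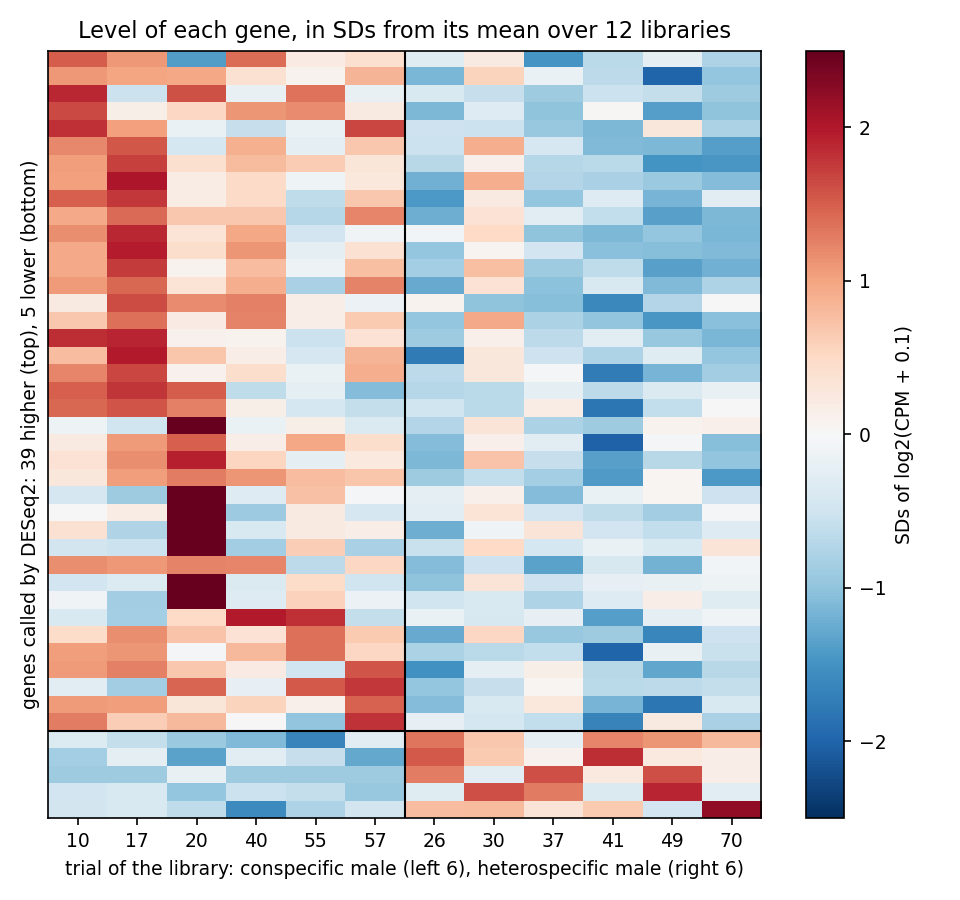
Level of each of the 44 genes called by DESeq2 (rows) in the 12 libraries (columns, conspecific trials left of heterospecific trials), as SDs of log2(CPM + 0.1) from the gene's mean; colours stop at ±2.5 SDs. Among the 39 upper rows, 7 are high in conspecific trial 20 alone, and a larger block is highest in conspecific trial 17.

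Among genes that were higher with a conspecific male and whose groups did not overlap, ENSGACG00000018836 had the lowest p. Its level was 2.76, 4.22, 5.22, 2.67, 3.98 and 3.05 CPM in conspecific trials 10, 17, 20, 40, 55 and 57, against 1.40, 2.61, 2.11, 0.845, 2.40 and 1.41 CPM in heterospecific trials 26, 30, 37, 41, 49 and 70. The gap was narrow, since the lowest conspecific fish (trial 40) had 2.67 CPM and the highest heterospecific fish (trial 30) 2.61 CPM. The mean was 3.65 ± 1.00 CPM with a conspecific male and 1.80 ± 0.683 CPM with a heterospecific male (SD, n = 6 each), a log2 fold change of 1.02 (SE 0.23, edgeR adjusted p = 0.137, DESeq2 adjusted p = 0.0205). Of the social control females 5 had 3.27 to 6.203 CPM, inside or above the conspecific range, and trial 79 had 1.64 CPM, inside the heterospecific range (mean 3.86 ± 1.55 CPM, SD, n = 6). The same gene stood higher in Paxton benthic brains, at means of 7.89 CPM with a conspecific male, 8.58 CPM with a heterospecific male and 7.75 CPM in the social control, and there the log2 fold change between males was −0.12 (SE 0.24, edgeR adjusted p = 0.898). In Priest limnetic brains it was −0.11 (SE 0.24, edgeR adjusted p = 1). The change in Paxton limnetic females minus that in Paxton benthic females was 1.14 on the log2 scale (SE 0.33, edgeR adjusted p = 0.561), and minus that in Priest limnetic females 1.12 (SE 0.33, edgeR adjusted p = 0.504), so neither difference between populations passed the test.

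A far more abundant gene, ENSGACG00000002330, was also higher with a conspecific male, by a smaller factor. It had 354, 259, 280, 317, 322 and 264 CPM in the conspecific libraries, in trial order, against 200, 235, 204, 253, 189 and 204 CPM in the heterospecific libraries. This gene too was chosen among those whose groups did not overlap, and the highest heterospecific fish (trial 41) lay just under the lowest conspecific fish (trial 17). Means were 299 ± 37.7 CPM with a conspecific male and 214 ± 24.4 CPM with a heterospecific male (SD, n = 6 each), a log2 fold change of 0.48 (SE 0.11, edgeR adjusted p = 0.156, DESeq2 adjusted p = 0.0320). Social control fish had 215 to 338 CPM, which took in part of both ranges. The log2 fold change was 0.10 (SE 0.13) in Paxton benthic and −0.03 (SE 0.12) in Priest limnetic females, and neither it nor its difference from Paxton limnetic females was called.

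Among genes that were lower with a conspecific male, ENSGACG00000001333 had the lowest p of those whose groups did not overlap. Its level was 0.861, 1.203, 0.656, 1.18, 1.00 and 0.678 CPM in the conspecific libraries, in trial order, against 3.01, 1.91, 1.44, 3.52, 1.55 and 1.49 CPM in the heterospecific libraries. Heterospecific trials 26 and 41 were highest, whereas trials 30, 37, 49 and 70 lay closer above the conspecific fish. Means were 0.929 ± 0.238 CPM with a conspecific male and 2.15 ± 0.891 CPM with a heterospecific male (SD, n = 6 each), a log2 fold change of −1.21 (SE 0.30, edgeR adjusted p = 0.188, DESeq2 adjusted p = 0.0482). Social control fish, at 1.17 ± 0.277 CPM (SD, n = 6), lay nearer the conspecific mean. The sign was the same in Paxton benthic (log2 fold change −0.38, SE 0.32) and Priest limnetic females (−0.20, SE 0.31), without a call in either.

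ENSGACG00000016293 behaved differently, since its level fell into a low and a high class of fish. It had 2.33, 2.55, 1.40, 2.19, 2.05 and 1.43 CPM in the conspecific libraries, in trial order, against 2.77, 18.0, 13.5, 2.62, 23.9 and 2.88 CPM in the heterospecific libraries. All 6 conspecific fish and 3 heterospecific fish were thus low, and heterospecific trials 30, 37 and 49 were high. The log2 fold change was −2.41 (SE 0.65, edgeR adjusted p = 0.253, DESeq2 adjusted p = 0.0680). Over the 51 libraries fitted, 37 had at most 6.63 CPM and 14 had at least 13.4 CPM. The 6.63 CPM belonged to Priest limnetic social control trial 66, which lay between the classes, and the next lower fish had 3.79 CPM. High fish numbered 0 of 6, 3 of 6 and 1 of 6 in Paxton limnetic conspecific, heterospecific and social control females, 3 of 5, 2 of 5 and 5 of 6 in Paxton benthic females in the same order of trial types, and none of the Priest limnetic libraries was high. The classes were read off the values, so no test was made of them, and what sets them was not tested.

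**Figure D2:**
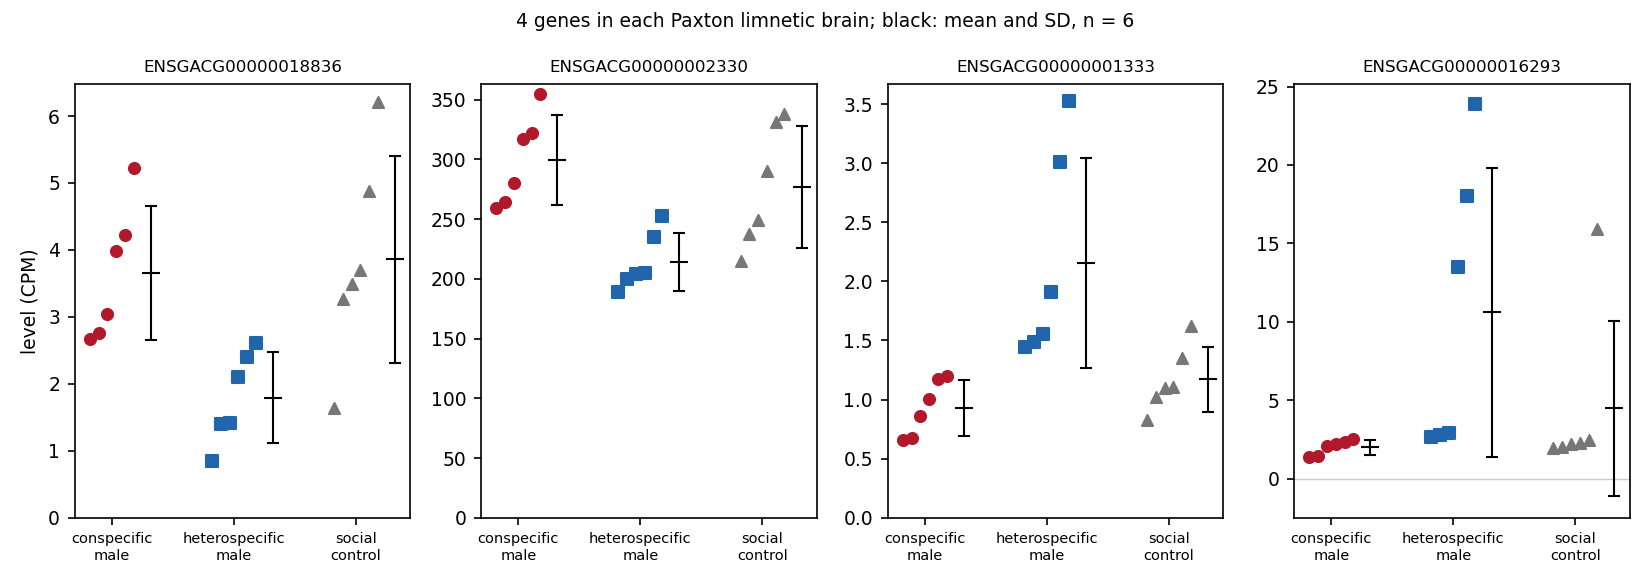
Level in CPM of the 4 named genes in each Paxton limnetic brain, by trial type (points; black mark and bar, mean and SD, n = 6). Conspecific and heterospecific points do not overlap in any of the 4, which were chosen for that. Most social control points of ENSGACG00000018836 lie with the conspecific points, and the heterospecific points of ENSGACG00000016293 split between 2.62 to 2.88 and 13.5 to 23.9 CPM.

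Across the transcriptome, females were spread within each treatment as widely as between treatments. The mean distance in log2 CPM over the most variable genes was 87.2 between fish with a conspecific male, 86.4 between fish with a heterospecific male, and 86.9 between fish of different treatments. The between-treatment distance exceeded the mean within-treatment distance by 0.140 (exact one-sided permutation test p = 0.364), and the spread within treatments differed by 0.811 (exact two-sided p = 0.844). The first principal component (PC1, 19.8% of variance) averaged −1.14 ± 31.9 with a conspecific male and 1.14 ± 25.2 with a heterospecific male (SD, n = 6 each, exact two-sided permutation p = 0.890). The second (PC2, 13.2%) averaged 12.4 ± 23.3 with a conspecific male and −12.4 ± 13.9 with a heterospecific male (exact two-sided permutation p = 0.0281, adjusted over the 5 components tested 0.141). Conspecific trial 20 stood at 56.6 on PC2, and without it the difference in the same scores was 16.0 in place of 24.8 (exact two-sided permutation p = 0.0606). Heterospecific trial 30, at 14.7, lay among the conspecific fish, while its 5 companions had −24.6 to −14.1.

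**Figure D3:**
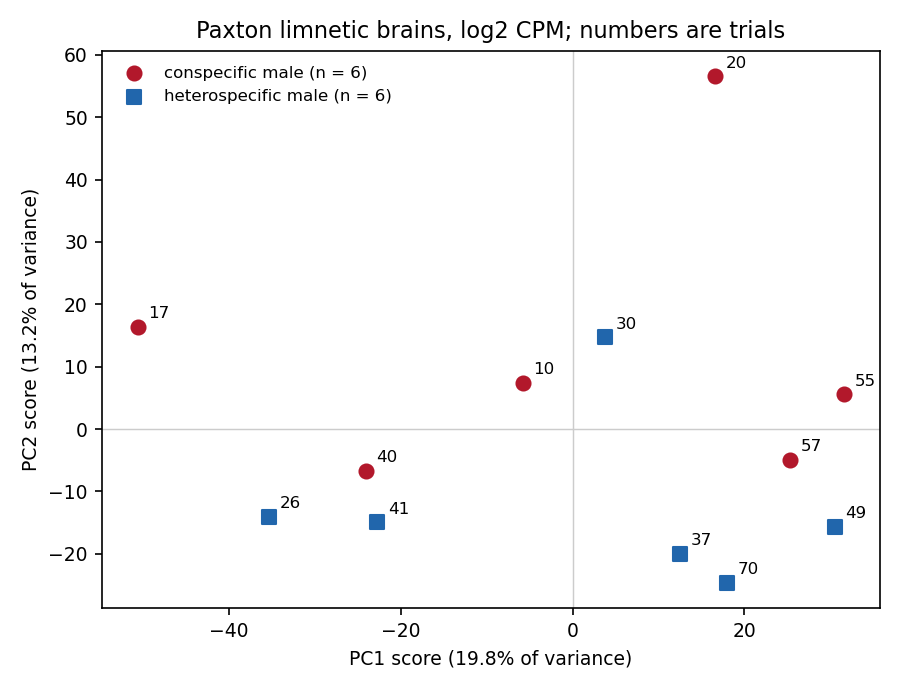
Scores of the 12 libraries on PC1 and PC2 of log2 CPM, with trial numbers; red circles are conspecific, blue squares heterospecific fish. PC1 mixes the treatments, and on PC2 conspecific trial 20 stands alone at 56.6 while heterospecific trial 30 sits at 14.7.

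How many genes were called turned on which fish were in the fit. Leaving out heterospecific trial 30 gave 76 calls in edgeR (0.38% of 20002 genes), 71 higher with a conspecific male and 5 lower, with a lowest adjusted p of 0.00142. Leaving out a conspecific fish gave 26 calls for trial 55, 12 for trial 40, 6 for trial 57, 4 for trial 17, and 2 each for trials 10 and 20. Leaving out heterospecific trial 37 gave 4 calls, and leaving out trial 26, 41, 49 or 70 gave 0. DESeq2 varied between 22 and 172 calls: 121 without conspecific trial 55, 172 without heterospecific trial 30, and 22, 24, 23 and 27 without heterospecific trials 26, 41, 49 and 70. Of DESeq2's 44 genes, 5 were called in all 12 of its fits that left out 1 fish, and 21 were not called without conspecific trial 20. Trial 20 was not alone in this. Of the 44, 23 were still called without it and 22 without conspecific trial 17. Without heterospecific trials 26, 41 and 49, 20, 20 and 21 were still called, and without heterospecific trial 30 all 44. In 38 of the 39 genes that DESeq2 called higher, all 12 edgeR fits kept that direction. These genes were chosen on this contrast and each fit left out only 1 fish, so the kept direction is largely fixed by that choice. Of the 4 named genes, the first 3 passed edgeR's threshold without heterospecific trial 30, ENSGACG00000018836 also without conspecific trial 40, and ENSGACG00000016293 passed it in none of the 12 fits.

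**Figure D4:**
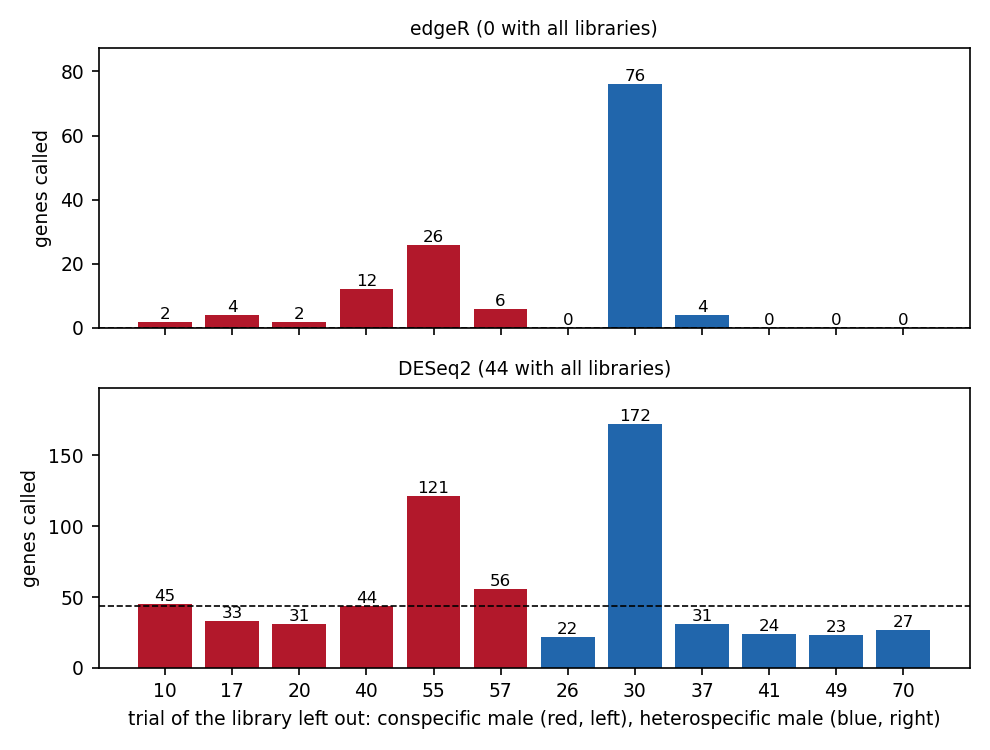
Number of genes called at an adjusted p under 0.1 by edgeR (top) and DESeq2 (bottom) when 1 library is left out, by the trial of that library; dashed lines give the number with all libraries, 0 and 44. The tallest bars are heterospecific trial 30 (76 and 172) and conspecific trial 55 (26 and 121).

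The fish of heterospecific trial 30 was then placed on the 76 genes called without it. It was singled out because leaving it out gave the most calls, and the 76 genes are ones that were not called with it, so a position toward the conspecific side is largely fixed by that choice and its values here are a description. Each of the 76 genes was given a scale on which 0 is the mean of the other 5 heterospecific fish and 1 the mean of the 6 conspecific fish, in log2 CPM. The median position of trial 30 was 1.03, it was nearer the conspecific mean for 66 of the 76 genes, and it lay inside the conspecific range for 70. For 64 of them it was beyond all 5 other heterospecific fish on the conspecific side. Social control fish had median positions of 0.418 to 0.923 on the same genes, and their mean was nearer the conspecific mean for 60 of the 76 (78.9%). That share was 65.6% for genes higher at an unadjusted p under 0.05 with all libraries. Over all genes tested it was 53.7% of those higher and 53.1% of those lower. The 76 genes were chosen for a difference between the males, so where social control fish lie is partly fixed by that choice. Of the 76 genes 32 were also in DESeq2's list on all libraries, 42.1% of the 76 and 72.7% of the 44. Trial 30 had a total count of 39731385 and 20725 genes with a count, inside the ranges of both treatments, and its mean distance to the other 11 fish was the lowest of the 12, at 80.6, against 93.4 for conspecific trial 20 at the top. What sets trial 30 apart was not tested.

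The same placement was made for all 12 fish alike, each on the 100 genes with the lowest p in the fit without it. Conspecific trials 10, 17, 20, 40, 55 and 57 had median positions of 0.585, 0.227, 0.584, 0.531, 0.298 and 0.424, and heterospecific trials 26, 30, 37, 41, 49 and 70 had 0.143, 1.00, 0.467, 0.315, 0.304 and 0.322. Thus 3 of 6 conspecific and 5 of 6 heterospecific fish lay on the side of their own treatment, 8 of 12 in all. With 500 genes 9 of 12 did: conspecific trial 17 changed side, to 0.652, trial 30 stood at 0.875, and conspecific fish spanned 0.295 to 0.665 and the other heterospecific fish 0.226 to 0.478. With either number of genes trial 30 had the highest position of the 12. On the 100 genes of the fit with all libraries, social control trials 19, 25, 33, 51, 61 and 79 had positions of 0.800, 0.525, 0.315, 0.679, 0.606 and 0.603. Those genes were chosen for a difference between the males, and a middle position of fish outside that contrast is partly fixed by the choice.

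**Figure D5:**
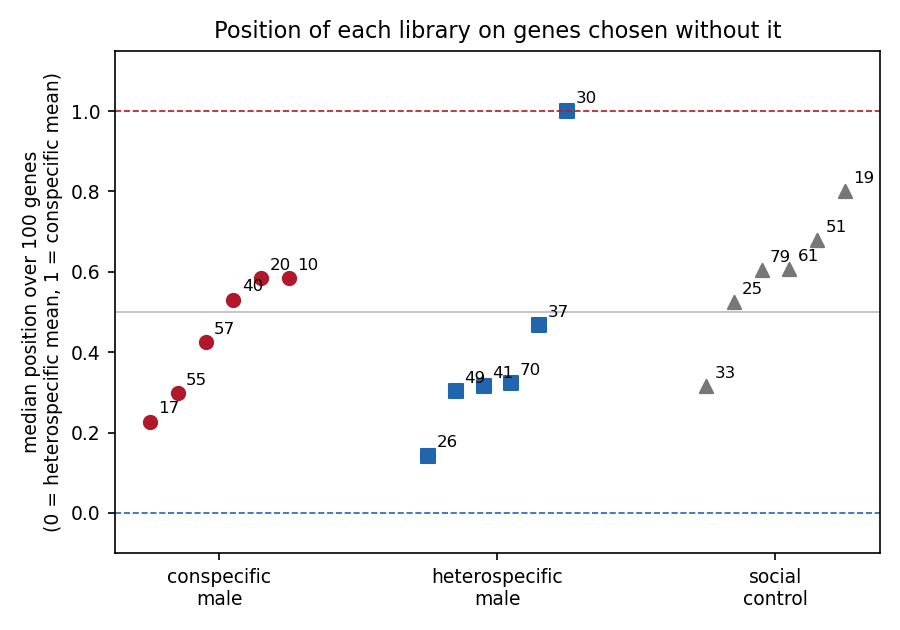
Median position of each fish over 100 genes, where 0 is the heterospecific and 1 the conspecific mean; each conspecific and heterospecific fish is placed on genes chosen without it, and social control fish on genes of the fit with all libraries. Conspecific fish span 0.227 to 0.585, heterospecific fish 0.143 to 0.467 apart from trial 30 at 1.00; with 500 genes conspecific trial 17 is at 0.652 and trial 30 at 0.875.

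The social control means were set beside those with each male, with no test. For the 39 genes that DESeq2 called higher with a conspecific male, the social control mean was between the means with each male in 33, above the conspecific mean in 3 and below the heterospecific mean in 3, and it was nearer the conspecific mean in 25 (64.1%). For the 759 genes higher at an unadjusted p under 0.05 in edgeR that share was 65.6%, for the 562 lower genes 52.7%, and over all genes tested 53.7% of those higher and 53.1% of those lower. Of the 5 genes that DESeq2 called lower, the social control mean was nearer the conspecific mean in 3 (60.0%). The 39 genes thus had about the share nearer the conspecific mean of any gene higher at an unadjusted p under 0.05. The social control mean was between the means with each male in 594 of the 759 higher and 449 of the 562 lower genes. Over all genes tested it was between them in 3858 of 9777 higher and 3985 of 10232 lower genes. A place between the means is thus partly fixed by choosing genes on the contrast.

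The genes of Paxton limnetic females were also read in the other populations, whose fold changes took no part in choosing them, although their libraries entered the shared estimate of spread behind the p-values. In Paxton benthic females 27 of the 39 genes were higher with a conspecific male (69.2%, against 46.2% of all genes tested), but the median log2 fold change was only 0.04. In Priest limnetic females 13 of the 39 were higher (33.3%, against 49.6% of all genes), with a median log2 fold change of −0.14. Of the 5 genes that DESeq2 called lower, 4 were lower in each of the other populations, where 53.8% of all genes (benthic) and 50.4% (Priest Lake) were lower. None of the 44 was called by edgeR in either population, where few genes were called at all, 3 of 20011 in benthic (0.015%) and 1 in Priest Lake females (0.005%). In Paxton limnetic females edgeR called none of the 44 either, so this does not set the populations apart. DESeq2 calls within the other populations are not given here. In benthic females 1 of the 39 was higher and 1 lower at an unadjusted p under 0.05, against 3.98% and 3.46% of all genes. In Priest Lake females 0 were higher and 2 lower, against 1.22% and 2.12% of all genes. The test of the difference itself, over all 20011 genes, called 0 in edgeR against the benthic females (1314 with an unadjusted p under 0.05, lowest adjusted p = 0.374) and 0 against the Priest Lake limnetics (1308, lowest adjusted p = 0.379). DESeq2 called 5 and 2 genes for these differences, and limma-voom 0 and 0.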

How the data were processed

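The authors combined the lanes of each fish, checked reads with FastQC 0.11.1, trimmed them with Trimmomatic 0.33, aligned them with BWA 0.7.7 to the Ensembl BROAD S1 genome and deposited raw counts per gene, with SAMtools 1.2 and bedtools 2.23.0 among their tools. Use of strand in counting is not given in the sources used here, so overlapping and antisense genes cannot be told apart. The table holds 22456 identifiers, 21798 of them with a count, and 0 matched a symbol in the reference table, so 23 gene lists were not used.

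Deposited counts were fitted as means of each population and trial type in edgeR 4.0.16 (TMM scaling, filterByExpr, quasi-likelihood test, Benjamini-Hochberg adjustment, threshold 0.1) over 51 libraries. The 2 libraries that the study set aside as swapped, both outside the 12 compared here, were left out. DESeq2 1.42.0 and limma 3.58.1 (voom with quality weights), other scalings, filters, sets of libraries and each fish left out were alternatives. Principal components used log2 CPM (prior count 2) of the 90% most variable genes, with exact tests over 924 arrangements. Named genes were the 2 higher and 2 lower genes with the lowest p whose groups did not overlap. The gene lists and the genes in them, which were not used, were chosen with earlier results of these data known. In R 4.3.3 the edgeR fit of the conspecific against heterospecific comparison was tested on simulated counts. The DESeq2 and limma-voom fits were not.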

Additional observations from a re-analysis of the deposited data

Results flagged for a closer look

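Among 26 groups of 5 or 6 values, 3 held a fish far from the rest of its group, where chance flags about 1 group in 20 of independent values. That rate does not hold strictly here. The PC scores come from axes fitted to the same libraries, and the named genes were chosen on these data. The 3 flags are therefore a description. On PC2, conspecific trial 20 had a score of 56.6, while the next conspecific fish had 16.4 and the lowest −6.68. Heterospecific trial 30 had 14.7 on PC2, while the next heterospecific fish had −14.1 and the lowest −24.6. For ENSGACG00000016293, the Paxton limnetic social control fish of trial 51 had 15.9 CPM, while the other 5 had 1.93 to 2.46 CPM.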

How the results depend on the processing

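The count of 0 genes called by edgeR held with relative log expression size factors, no filter on low counts, only the 12 libraries, only the 18 Paxton limnetic libraries, all 53 labelled libraries, trial number as a covariate and limma-voom, and with robust dispersion, which was added after seeing the data. It was 44 with DESeq2, 92 with DESeq2 and a normal prior on the fold changes, and 65 without both conspecific trial 20 and heterospecific trial 30, the last 2 settings also added after seeing the data. With 1 fish left out it ranged from 0 to 76 in edgeR and, as an addition after seeing the data, from 22 to 172 in DESeq2. The differences between populations gave 5 and 2 calls with DESeq2 and 0 in the other settings run. The PC1 difference of −2.29 was 4.25 with 500 genes, −4.86 with variance-stabilized values and −13.1 to 15.7 with 1 fish left out, with exact two-sided permutation p of 0.329 to 0.983 over the 14 alternatives. Each named gene kept its direction in all 23 alternatives and passed the threshold in 5 (ENSGACG00000018836), 4 (ENSGACG00000002330), 3 (ENSGACG00000001333) and 1 (ENSGACG00000016293) of them. These genes were chosen because their groups did not overlap, and every alternative reused the same counts. The kept direction is therefore largely fixed by that choice and is no separate support. With the normal prior the log2 fold change was −0.53 for ENSGACG00000016293 (DESeq2 adjusted p = 0.204, so its DESeq2 call was lost) and −0.73 for ENSGACG00000001333. With only the 12 libraries the edgeR adjusted p of ENSGACG00000018836 was 0.675. The cause of these changes was not tested. No paired analysis was possible because conspecific and heterospecific trials share no trial number. With 6 fish a group and spread of this size, genes with modest differences may lie under what the test could call.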
